A study of Mus musculus with 36 samples.

Results

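DOT1L is the only known enzyme of mammals that methylates lysine 79 of histone H3, a mark laid down along the bodies of transcribed genes, and SGC0946 is a small molecule that blocks it. During reprogramming of fibroblasts to induced pluripotent stem cells, cells pass through a mesenchymal-to-epithelial transition, in which junction proteins and keratins are gained and mesenchymal and contractile genes are lost. CDH1 (E-cadherin), the calcium-dependent adhesion molecule of epithelial junctions, is a surface marker of that step. The cells described here lacked surface CDH1 when they were sorted and then grew with or without the inhibitor.

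The CDH1-negative sorted cells make up 4 of the 36 libraries of the series, 2 with the inhibitor and 2 controls, chosen by their sample labels. Mouse embryonic fibroblasts (MEFs) taken at E13.5 were homozygous for a doxycycline-inducible cassette of Oct4, Klf4, Sox2 and c-Myc, joined by 2A sequences with an IRES before Sox2, at the Col1a1 locus and heterozygous for the reverse tetracycline transactivator at Rosa26. They received doxycycline for 3.5 days, were sorted by flow cytometry into CDH1-negative and CDH1-positive cells, and were grown to day 5.5 with doxycycline and either SGC0946 or its vehicle DMSO. Set beside them are the CDH1-positive cells of the same sort, treated alike (2 and 2 libraries), and unsorted cells of the same genotype harvested on day 4 of doxycycline after inhibitor on days 2 to 4 or none (2 and 2 libraries). The labels describe irradiated MEFs as a feeder layer for reprogramming cells, and RNA from such cells would not be separable in these libraries. They do not say whether replicates are separate cultures, so the p-values reflect library-to-library scatter that could be purely technical.

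The 4 CDH1-negative libraries held 35.5 M and 34.9 M (controls) and 41.8 M and 38.0 M (inhibitor) estimated counts. Levels are given in CPM, counts relative to the scaled total of the library, after scaling between libraries, and serve to compare 1 gene between libraries, not genes with each other. Of 20325 genes, 13968 passed a filter on low counts. A gene is said to have risen or fallen, or is called, where edgeR's quasi-likelihood test gave an adjusted p (Benjamini-Hochberg, over all genes tested) under 0.05, and a log2 fold change is inhibitor over control with its standard error (n = 2 and 2). Replicates differed more than counting noise alone, with a chi-square per gene of 2.38 in the controls and 3.09 in the inhibitor pair. Among the unsorted libraries the pair with inhibitor on days 2 to 4 stood apart, at 11.1 per gene against 1.90 in its day 4 controls. In such bulk samples, fewer cells of a type and less RNA per cell cannot be told apart.

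The label CDH1-negative was checked on Cdh1 and on marker lists. Cdh1 stood at 7.27 and 7.24 CPM in the CDH1-negative controls and at 46.6 and 46.0 CPM in the CDH1-positive controls, so the sorted populations still differed on day 5.5. The sum of 7 epithelial markers was 47.3 and 49.7 CPM in the CDH1-negative controls and 143 and 145 CPM in the CDH1-positive controls. Fibroblast markers dominated the CDH1-negative libraries: all 14, among them Vim, Fn1 and Col1a1, were found at more than 2 CPM in each. Their sum was 21759 and 22302 CPM in the controls against 20479 and 19994 CPM with the inhibitor. The CDH1-positive controls held a similar sum of 22302 and 22450 CPM, so it did not tell the sorted populations apart. The 6 macrophage and leukocyte markers summed to 10.0 and 9.84 CPM in the controls and 8.23 and 7.75 CPM with the inhibitor, with Aif1 at 0 in 2 of the 4 libraries, while the CDH1-positive controls held 59.2 and 60.6 CPM. Of the muscle markers Myod1, the myogenic master regulator, was at 0 in every library, and of the endothelial sum of 66.3 to 72.4 CPM nearly all was the receptor gene Tek.

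Promoters are shown for some of the genes on which the results turn, so that their upstream sequence can be read beside their values. Each of those shown holds a match to its motif. Each is the 250 bases before the transcription start in RefSeq on GRCm38.p6, 5′ to 3′ on the strand of the gene, matched by symbol because the authors' counts name genes without coordinates. Epcam and Krt8 encode an epithelial adhesion molecule and a simple-epithelium keratin, and the capitals mark the E-box CAGGTG on either strand, a sequence that repressors of the SNAIL and ZEB families are known to bind. Isg15 encodes an interferon-induced ubiquitin-like protein, and the capitals mark overlapping matches of the interferon response (ISRE) core, which is GAAA, any 2 bases and GAAA again. Myl9 encodes a myosin light chain of contractile cells, and the capitals mark its CArG box, the element bound by serum response factor.
Epcam, chr17:87635729-87635978, plus strand: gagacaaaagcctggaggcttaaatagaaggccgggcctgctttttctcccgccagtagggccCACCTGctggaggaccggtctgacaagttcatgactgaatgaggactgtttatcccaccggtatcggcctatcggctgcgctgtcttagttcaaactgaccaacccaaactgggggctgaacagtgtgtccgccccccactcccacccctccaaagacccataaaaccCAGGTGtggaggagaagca
Krt8, chr15:102004343-102004592, minus strand: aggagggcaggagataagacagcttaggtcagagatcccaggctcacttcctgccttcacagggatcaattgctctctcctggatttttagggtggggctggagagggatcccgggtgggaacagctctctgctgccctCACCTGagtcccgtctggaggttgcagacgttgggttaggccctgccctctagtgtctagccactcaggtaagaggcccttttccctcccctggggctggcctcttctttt
Isg15, chr4:156200819-156201068, minus strand: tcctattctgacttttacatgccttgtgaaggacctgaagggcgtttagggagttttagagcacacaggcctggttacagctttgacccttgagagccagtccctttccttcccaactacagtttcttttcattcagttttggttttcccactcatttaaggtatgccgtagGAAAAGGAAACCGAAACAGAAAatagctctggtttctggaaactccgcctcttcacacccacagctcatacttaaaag
Myl9, chr2:156775214-156775463, plus strand: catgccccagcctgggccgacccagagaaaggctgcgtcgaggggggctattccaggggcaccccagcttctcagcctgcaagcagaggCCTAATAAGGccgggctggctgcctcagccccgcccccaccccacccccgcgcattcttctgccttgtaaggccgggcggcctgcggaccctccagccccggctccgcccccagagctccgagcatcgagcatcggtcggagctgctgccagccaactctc
In Epcam the E-box began at -187 and -19 from the start, in Krt8 at -111, and in Isg15 the core began at -78, -72 and -66, while the CArG box of Myl9 began at -161. Searched on both strands, CAGGTG was present in the 250 bases of 19.4% of all 27025 genes with a window, the ISRE core in 3.46% and the CArG box in 1.62%. A match was found for 6 of the 10 junction and keratin genes with a window that rose (E-box), for 6 of the 9 interferon-response genes with a window that fell (ISRE core) and for 2 of the 9 contractile genes with a window that fell (CArG box). Of the whole interferon list, 9 of 15 genes with a window held the ISRE core. Cldn3 had no E-box in its window. The CArG box was searched as CC, 6 bases of A or T, and GG, and near matches were not counted for any gene. Cnn1 and Acta2 had no exact match in their windows, though that of Acta2 held the near matches ccctatatgg and ccttgtttgg. These matches describe the letters of the windows only.

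Inhibitor treatment of CDH1-negative cells raised 1092 genes and lowered 1515, or 18.7% of those tested (7.82% higher and 10.8% lower). Most changes were small: the median size among the called genes was 0.22 on the log2 scale, and 128 rose and 15 fell by 2-fold or more (0.916% and 0.107%). The direction went with level. Of 1772 genes with a mean under 1 CPM, 102 rose and 12 fell, whereas of 2255 genes over 100 CPM, 133 rose and 578 fell. The split also moved with the scaling, since library totals alone gave 1776 higher and 951 lower calls and limma on log2(TPM + 1) gave 1084 and 720. Dot1l itself, the target of the compound, was at 81.9 and 87.3 CPM in the control libraries and 83.6 and 83.2 CPM in the inhibitor libraries, with overlapping groups and a log2 fold change of -0.02 ± 0.04 (adjusted p = 0.778). An enzyme inhibitor acts on the protein, so this level is no check of the treatment.

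**Figure D1:**
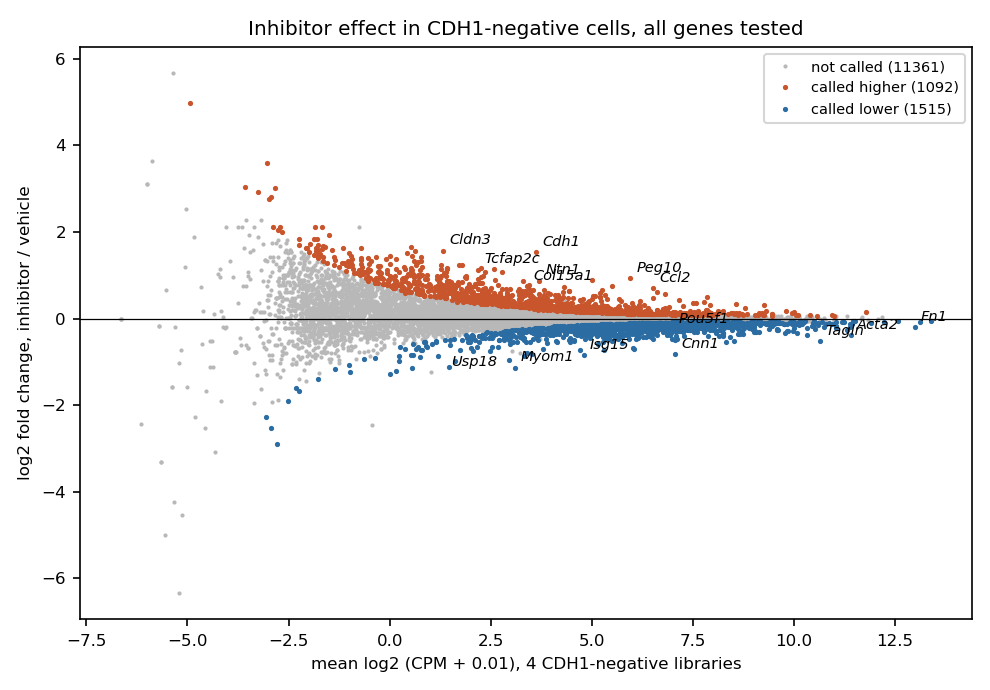
Log2 fold change, inhibitor over vehicle, against the mean log2 (CPM + 0.01) of the 4 CDH1-negative libraries for every gene tested; each point is 1 gene, orange for the 1092 called higher, blue for the 1515 called lower and grey for the rest. Calls on the right, among genes of high level, are mostly blue and within 1 unit of 0, and the larger called increases lie to the left.

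Cdh1, the gene of the sorted surface protein, rose. It was at 7.27 and 7.24 CPM in the control libraries and 20.9 and 20.9 CPM in the inhibitor libraries, a log2 fold change of 1.53 ± 0.07 (adjusted p = 1.25e-35), or 2.88-fold. The inhibitor pair lay far above the control pair yet below every CDH1-positive library. Among 22 genes of adherens and tight junctions, 7 rose and 3 fell (median 0.30, against -0.00 for all genes tested). That baseline is not matched for level: the median of all genes was 0.23 under 1 CPM and 0.06 at 1 to 10 CPM. Summed over the whole list, levels went from 881 and 874 CPM in the controls to 819 and 833 CPM with the inhibitor. Cldn3 and Cldn4 encode claudins, the sealing strands of tight junctions. Cldn3 went from 1.26 and 1.63 CPM to 4.55 and 4.02 CPM, 1.57 ± 0.17 (adjusted p = 5.91e-13), and Cldn4 from 0.858 and 0.817 CPM to 1.97 and 1.88 CPM, 1.197 ± 0.22 (adjusted p = 5.51e-06). With the inhibitor, the CDH1-negative cells had more Cldn3 than the CDH1-positive controls, at 1.76 and 1.37 CPM. Epcam was at 3.69 and 3.15 CPM in the control libraries and 6.33 and 5.72 CPM in the inhibitor libraries, 0.82 ± 0.12 (adjusted p = 3.68e-08), and its groups did not overlap. The members that fell included Ctnnd1, the p120 catenin that stabilises cadherins at the membrane (-0.22 ± 0.03) and Cdh3, P-cadherin (-0.29 ± 0.09, named after its value was seen). Cldn7, the member with the largest fold change at 2.12, did not pass the test (adjusted p = 0.152).

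**Figure D2:**
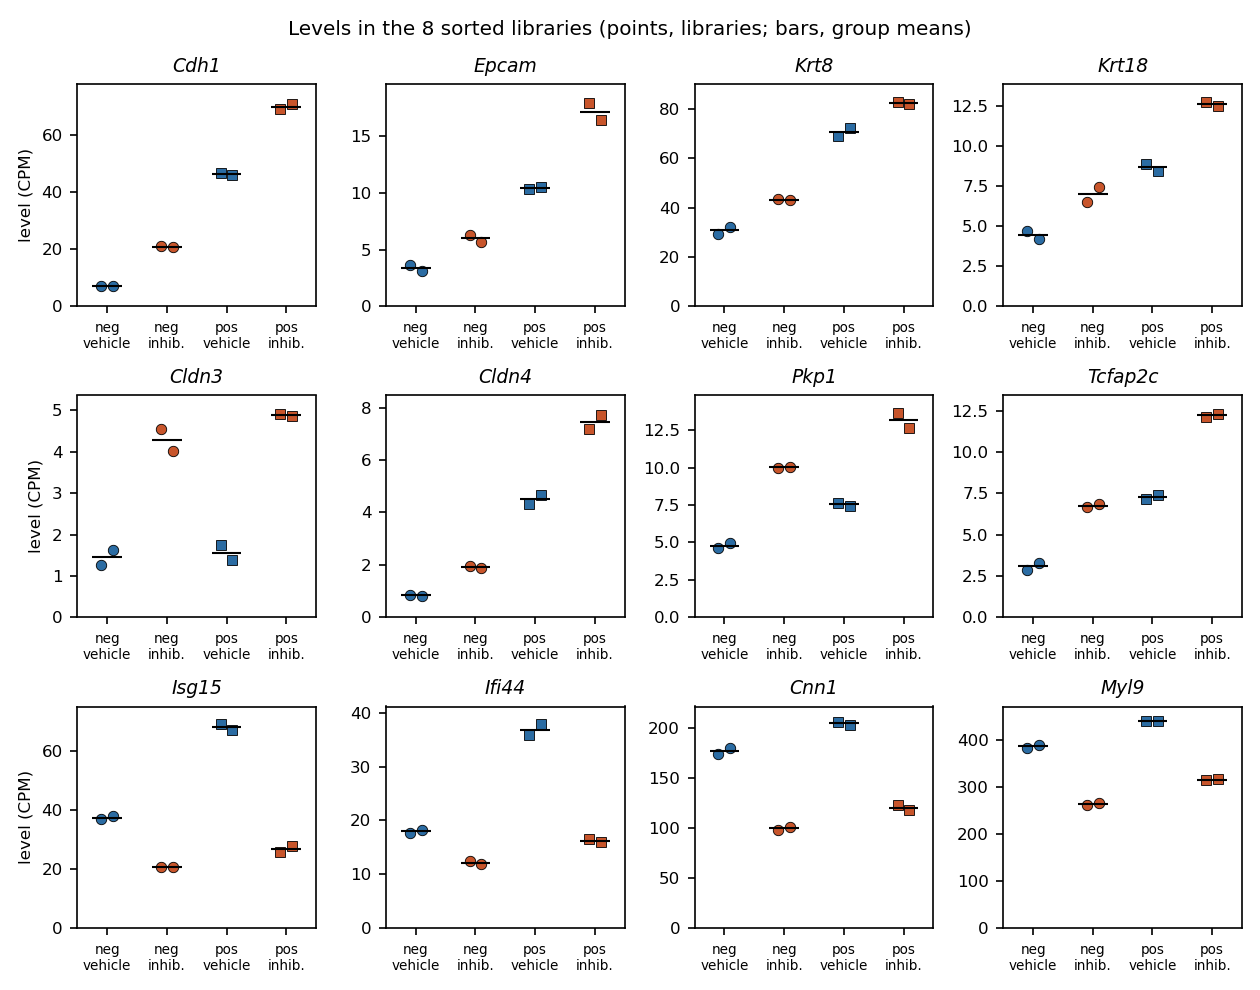
Levels in CPM (linear axes from 0) of 12 genes in the 8 sorted libraries; points are libraries, circles CDH1-negative and squares CDH1-positive, blue vehicle and orange inhibitor, and bars are means of 2. In the CDH1-negative cells Cdh1 rises from about 7.25 to 20.9 CPM and stays under the 46.3 CPM of the CDH1-positive controls, while Isg15, Ifi44, Cnn1 and Myl9 fall in both populations.

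Keratins and desmosomal genes, which build the intermediate filaments of epithelia and anchor them at cell contacts, rose in 10 of 16 and fell in 3 (median 0.57). Krt8 was at 29.4 and 32.2 CPM in the control libraries and 43.6 and 43.0 CPM in the inhibitor libraries, 0.49 ± 0.05 (adjusted p = 3.12e-15). Pkp1, a desmosomal plaque protein, was at 4.61 and 4.93 CPM in the control libraries and 9.99 and 10.0 CPM in the inhibitor libraries, 1.07 ± 0.11 (adjusted p = 5.38e-15). Both pairs were apart, and the Pkp1 pair with inhibitor exceeded the CDH1-positive controls at 7.62 and 7.45 CPM. Krt19 rose by less, from 134 and 141 CPM to 169 and 169 CPM (0.30 ± 0.03), and Krt18, the partner of Krt8, rose by 0.65 ± 0.11. Pkp2, a plakophilin also present outside epithelia, fell from 99.1 and 93.9 CPM to 75.8 and 75.3 CPM (-0.35 ± 0.04). Perp (-0.22 ± 0.03) and Jup (-0.08 ± 0.03) were the others that fell, and both were named after their values were seen.

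Regulators of the epithelial state rose in 7 of 14 with none lower (median 0.74). Tcfap2c, the transcription factor AP-2 gamma, was at 2.89 and 3.27 CPM in the control libraries and 6.67 and 6.84 CPM in the inhibitor libraries, 1.13 ± 0.12 (adjusted p = 3.8e-13). With the inhibitor it lay just under the CDH1-positive controls, at 7.18 and 7.37 CPM. The ETS factor Ehf rose by 0.60 ± 0.10, its relative Elf3 by 1.203 ± 0.29 from near 0.5 CPM, and the splicing regulator Esrp2 by 0.73 ± 0.18. By DESeq2 only 3 of the 14 were called. Of the 5 genes of the matriptase pathway, a protease system of epithelial surfaces, 3 rose: the protease St14 (0.32 ± 0.08) and its inhibitors Spint1 (0.35 ± 0.08) and Spint2 (0.43 ± 0.07). Spint1 lost its call without the second inhibitor library (0.26, adjusted p = 0.058). Of the basement-membrane laminin and its integrin receptors, 4 of 10 rose, among them Itga3 (0.53 ± 0.05), and Itgb4 fell from 318 and 334 CPM to 249 and 242 CPM (-0.41 ± 0.03). Epidermal differentiation genes rose in 6 of 14 and fell in 2, a count of 2 and 1 by DESeq2.

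The largest increases at a mean log2 CPM of at least 1 were Cldn3, Cdh1, Scara5, Sostdc1, Sprr2b, Lonrf3, Cyp2s1, Atp2a3, Gprasp2, Areg, Tcfap2c and Psd4, from 1.08 to 1.57. Areg encodes amphiregulin, a ligand of the EGF receptor, and went from 3.98 and 4.09 CPM to 8.90 and 8.85 CPM (1.14 ± 0.11). Sostdc1, a secreted antagonist of BMP and Wnt signals, went from 2.12 and 2.16 CPM to 5.22 and 4.88 CPM (1.24 ± 0.16). Sprr2b, a cornified-envelope precursor, went from 1.69 and 2.92 CPM to 5.38 and 5.40 CPM (1.23 ± 0.17). Of the 12, 11 stood under 5 CPM in both control libraries. At higher levels, the retrotransposon-derived imprinted gene Peg10 went from 46.4 and 42.8 CPM to 84.2 and 86.7 CPM (0.94 ± 0.04) and the guidance cue Ntn1 from 23.7 and 23.0 CPM to 43.7 and 43.3 CPM (0.90 ± 0.05). Neither pair overlapped with its controls.

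The largest decreases under the same rule were Myom1, Npas4, Hoxd12, Usp18, Tmem88, Nnat, Isg15, Cnn1, Nptx2, Aspn, Hist1h2ab and Clic5, from -1.13 to -0.74. Myom1, a protein of the sarcomeric M-band, was at 12.6 and 12.6 CPM in the control libraries and 5.95 and 5.53 CPM in the inhibitor libraries (-1.13 ± 0.10, adjusted p = 8.32e-19). Npas4, an activity-dependent transcription factor of neurons, went from 3.98 and 4.09 CPM to 1.78 and 1.93 CPM (-1.12 ± 0.16), and the matrix proteoglycan Aspn from 14.8 and 12.8 CPM to 7.73 and 8.22 CPM (-0.79 ± 0.09). Hist1h2ab lost its call under limma (adjusted p = 0.0619). All 12 also had a negative log2 fold change in CDH1-positive cells, which used other libraries of the same fit, from -1.34 to -0.45.

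**Figure D3:**
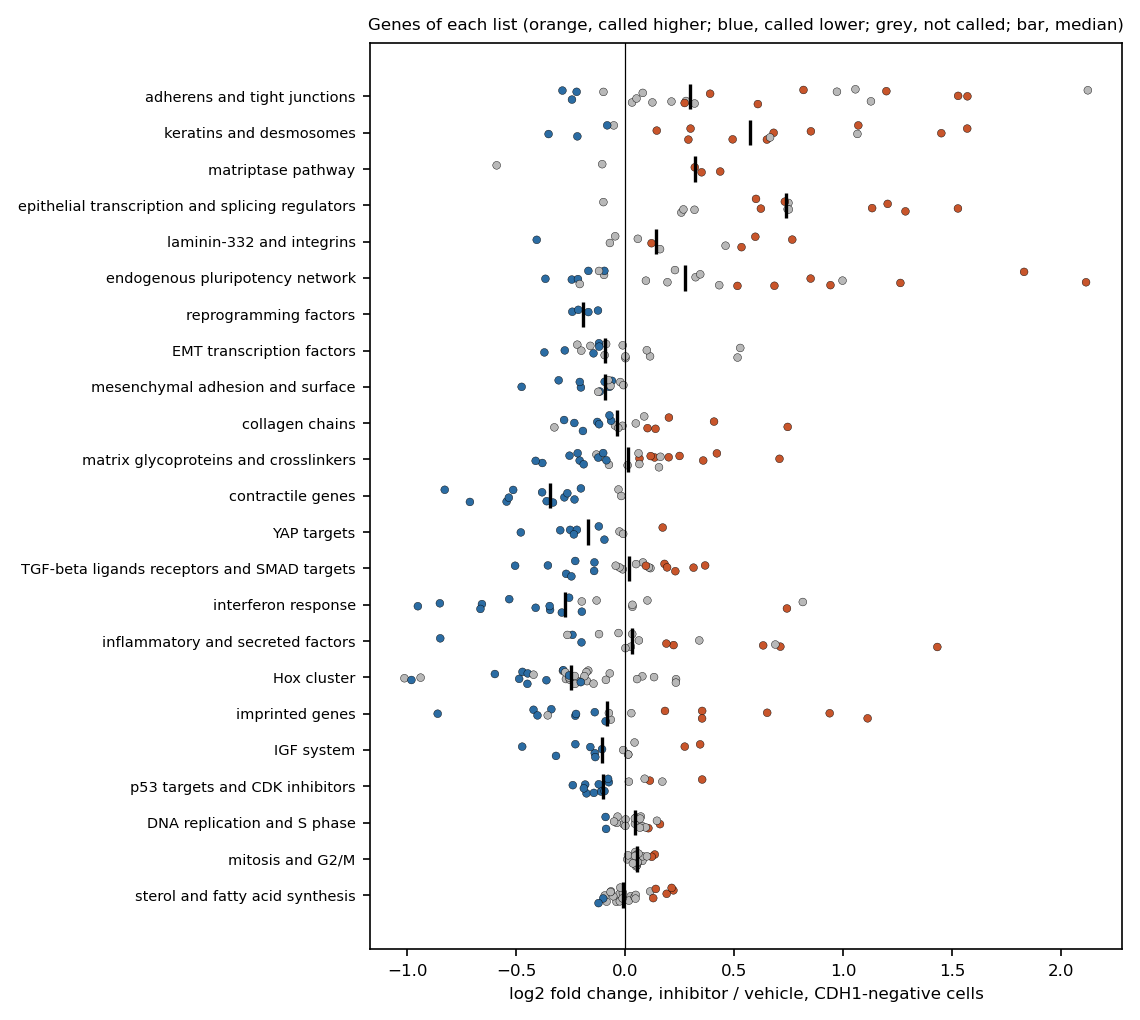
Log2 fold change, inhibitor over vehicle, in CDH1-negative cells for the tested members of 23 gene lists; each point is 1 gene, orange called higher, blue called lower, grey not called, and the black bar is the list median. The medians of the 4 lists of junctions, keratins, matriptase and epithelial regulators lie between 0.30 and 0.74, and that of the contractile genes at -0.35.

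Contractile genes of smooth-muscle and myofibroblast type fell in 12 of 14, with none higher (median -0.35). Cnn1, calponin, was at 174 and 179.5 CPM in the control libraries and 98.2 and 101 CPM in the inhibitor libraries, -0.83 ± 0.03 (adjusted p = 1.14e-43). Myl9 was at 385 and 390.4 CPM in the control libraries and 263 and 268 CPM in the inhibitor libraries, -0.55 ± 0.03 (adjusted p = 1.07e-35). Tagln, transgelin, was at 1894 and 1892 CPM in the control libraries and 1321 and 1329 CPM in the inhibitor libraries, -0.52 ± 0.02 (adjusted p = 3.9e-38). In each of the 3 genes the control libraries lay close together and well above the inhibitor libraries. The smooth-muscle myosin Myh11 fell by 0.71 and smooth-muscle actin Acta2 by 0.38 on the log2 scale, while Tpm1 (-0.03 ± 0.02) and Synpo2 (-0.02 ± 0.16) were not called. Of the markers of skeletal muscle, Myod1 was at 0 in the CDH1-negative libraries, Myog at 0 or under 0.05 CPM, and the skeletal actin Acta1 at 21.3 and 22.4 CPM in the control libraries and 18.9 and 18.5 CPM in the inhibitor libraries. Of 10 targets or partners of YAP, the mechanosensitive co-activator, 7 fell and 1 rose: Ankrd1 changed by -0.48 ± 0.04 and Ctgf by -0.30 ± 0.02, but Cyr61 rose by 0.17 ± 0.02. Among all genes over 100 CPM, 578 of 2255 fell.

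Mesenchymal genes fell by less. Of 17 transcription factors tied to the epithelial-to-mesenchymal transition, 5 fell and none rose (median -0.10), among them Foxc1 (-0.37 ± 0.07), Zeb1 (-0.15 ± 0.04), Prrx1 (-0.12 ± 0.03) and Tcf4 (-0.12 ± 0.04). Zeb1 and Tcf4 lost their calls under limma on log2(TPM + 1), where 2 factors were called, and Tcf4 also under DESeq2 (adjusted p = 0.0898), with library totals (0.102) and without the first control (-0.10, adjusted p = 0.15) or the first inhibitor library (-0.11, 0.0618). Fibronectin, Fn1, was at 8700.2 and 8655 CPM in the control libraries and 7491 and 7574 CPM in the inhibitor libraries (-0.20 ± 0.02), and the adhesion molecules Thy1 (-0.21 ± 0.03) and Mcam (-0.48 ± 0.05) fell as well. They belong to 13 mesenchymal surface and adhesion genes, of which 8 fell and none rose, with 4 lower by limma. Falls were more frequent at high level, at 578 of all 2255 genes over 100 CPM. The matrix moved both ways: of 18 collagen chains 5 rose and 7 fell, with Col15a1 going from 34.9 and 35.0 CPM to 59.4 and 57.7 CPM (0.74 ± 0.05) and Col4a1 from 996 and 1039.7 CPM to 855 and 819 CPM (-0.28 ± 0.02). Of 25 matrix glycoproteins and crosslinkers 8 rose and 9 fell, Efemp1 by 0.42 ± 0.03 and Tnc, tenascin C, by -0.38 ± 0.02. Of 20 ligands, receptors and targets of TGF-beta 6 rose and 7 fell, the activin subunit Inhba from 161 and 156 CPM to 110.0 and 114 CPM (-0.51 ± 0.03).

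The 4 reprogramming factors fell together by small amounts. Pou5f1 (Oct4) was at 135 and 142 CPM in the control libraries and 118 and 116 CPM in the inhibitor libraries, -0.24 ± 0.03 (adjusted p = 1.44e-09). Sox2 changed by -0.22 ± 0.04, Klf4 by -0.17 ± 0.03 and Myc by -0.13 ± 0.03, all called. Counts by gene symbol do not separate the transgene cassette from the endogenous genes, and the part of these changes in the other results was not tested. Among 22 genes of the endogenous pluripotency network 7 rose and 5 fell, or 3 and 3 by DESeq2. Tcfcp2l1, a factor of the naive state, went from 2.75 and 2.07 CPM to 4.32 and 4.38 CPM (0.85 ± 0.15) and the Nodal co-receptor Tdgf1 from 0.772 and 0.525 CPM to 1.83 and 1.28 CPM (1.26 ± 0.25). Nanog was at 1.72 and 1.34 CPM in the control libraries and 1.83 and 2.01 CPM in the inhibitor libraries, and its change of 0.32 ± 0.20 did not pass (adjusted p = 0.286). Alpl, an alkaline phosphatase that marks pluripotent cells, fell (-0.37 ± 0.08).

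Developmental patterning genes fell where they moved. Of 35 Hox genes, which encode positional identity along the body and limb axes, 10 fell and none rose (median -0.25). This count was 5 by DESeq2 and 5 without the first inhibitor library. Hoxd12 went from 4.32 and 4.35 CPM to 1.73 and 2.69 CPM (-0.98 ± 0.16) and Hoxb3 from 14.1 and 13.51 CPM to 10.7 and 9.24 CPM (-0.47 ± 0.09). Of 12 genes of the Meis, Pbx, Meox and nuclear factor I families 3 fell: Nfix, from 63.7 and 66.8 CPM to 45.7 and 42.4 CPM (-0.56 ± 0.04), Meox2 (-0.55 ± 0.10) and Nfic (-0.15 ± 0.03). Of 15 partners of DOT1L and elongation factors 3 fell slightly, Mll1 (-0.19 ± 0.03), Aff1 (-0.19 ± 0.04) and Mllt6 (-0.12 ± 0.04). The share called in this list was near the 18.7% over all genes tested. Mllt6 lost its call under 5 other settings, DESeq2 (adjusted p = 0.203), limma (0.267), library totals (0.163), no low-count filter (0.0537) and only 4 libraries (0.0532), and without the first control (-0.14, adjusted p = 0.0542), the second control (-0.10, 0.231) or the second inhibitor library (-0.10, 0.173). Mll1 and Nfic lost theirs under limma (0.0616 and 0.0529).

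Growth-related lists gave mixed counts. Of 18 imprinted genes 6 rose and 8 fell: beside Peg10, the hydrolase-like Mest went from 31.6 and 28.8 CPM to 47.4 and 47.5 CPM (0.65 ± 0.05), and the growth adaptor Grb10 from 1209 and 1198 CPM to 940.2 and 962 CPM (-0.34 ± 0.02). The neuronal proteolipid Nnat, also imprinted, fell from 13.2 and 13.51 CPM to 7.19 and 7.52 CPM (-0.86 ± 0.09). In the IGF system 2 of 13 rose, including the binding protein Igfbp3 (0.34 ± 0.03), and 7 fell, including the receptor Igf1r (-0.32 ± 0.03) and the RNA-binding protein Igf2bp1 (-0.47 ± 0.04). Of 16 targets of p53 and inhibitors of cyclin-dependent kinases 11 fell and 2 rose, by at most 0.24 on the log2 scale among those that fell, and limma on log2(TPM + 1) called 2 in each direction. For comparison, 10.8% of all genes tested fell, and 578 of the 2255 over 100 CPM. Of 19 genes of DNA replication 2 rose and 2 fell, near the 18.7% called over all genes tested. Of 18 mitotic genes 2 rose, Top2a (0.12 ± 0.03) and Ccna2 (0.13 ± 0.03). With library totals alone these lists had 6 and 10 genes higher and none lower.

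Genes of the interferon response, the antiviral program, went down in 11 of 18 cases and up in 1 (median -0.28). Isg15 was at 36.9 and 37.9 CPM in the control libraries and 20.6 and 20.8 CPM in the inhibitor libraries, -0.85 ± 0.05 (adjusted p = 2.23e-26). Usp18, the protease that removes ISG15 from proteins, was at 11.2 and 10.3 CPM in the control libraries and 5.22 and 5.92 CPM in the inhibitor libraries, -0.95 ± 0.10 (adjusted p = 8.99e-14). The groups were apart in both. Oasl2 (-0.67 ± 0.11) and the signal transducer Stat2 (-0.35 ± 0.06) fell too, and Rsad2 was the 1 that rose (0.74 ± 0.27, named after its value was seen). Limma on log2(TPM + 1) called 8 lower and none higher. The sum over 6 macrophage and leukocyte markers was also lower with the inhibitor (8.23 and 7.75 CPM against 10.0 and 9.84 CPM), though of 12 tested genes of the longer list 2 fell and 1 rose, Lyz2 by -0.73 ± 0.13 and Itgam by 0.58 ± 0.22. Itgam lost its call under DESeq2 (adjusted p = 0.168), limma (0.161), the fit of only 4 libraries (0.096) and the replicate block (0.05005), and without the first control (0.52, adjusted p = 0.191), the second control (0.66, 0.0824) or the second inhibitor library (0.33, 0.473). The part of these cells in the interferon values was not tested. Chemokines went the other way: Ccl2 was at 70.3 and 72.2 CPM in the control libraries and 119 and 115 CPM in the inhibitor libraries (0.71 ± 0.04, adjusted p = 2.93e-34), and Cxcl1 (0.63 ± 0.07) and Cxcl10 (1.43 ± 0.22) rose. Among 17 inflammatory and secreted factors there were 5 increases and 3 decreases, the latter including the prostaglandin synthase Ptgs2 (-0.24 ± 0.03).

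The same inhibitor in CDH1-positive cells gave 1163 higher and 1468 lower calls, 18.8% of the genes tested. Of the genes called higher in CDH1-negative cells, 640 were called higher there (58.6% of the CDH1-negative and 55.0% of the CDH1-positive calls), and of those called lower 959 (63.3% and 65.3%), with 1 gene called in opposite directions each way. The difference of the 2 effects, tested in the same fit, was called for 26 genes, or 0.186% (931 at an unadjusted p under 0.05, 11 adjusted calls by DESeq2 and 8 by limma on log2(TPM + 1)). Cdh1 led those of sizeable level: it rose by 1.53 ± 0.07 in CDH1-negative and by 0.59 ± 0.04 in CDH1-positive cells, a difference of 0.93 ± 0.09 (adjusted p = 1.44e-14). In CPM that was a gain from 7.25 to 20.9 against one from 46.3 to 69.9. Krt8 rose by 0.49 ± 0.05 against 0.22 ± 0.04 (difference 0.27 ± 0.06, adjusted p = 0.0231) and Ccl2 by 0.71 ± 0.04 against 0.39 ± 0.04 (difference 0.32 ± 0.05, adjusted p = 5.48e-06). For Epcam, Cldn3, Pkp1 and Tcfap2c the difference was not called, with adjusted p of 0.965, 0.987, 0.772 and 0.651.

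Among the 26 were the interferon-response genes Isg15 and Bst2, both with the lower effect in CDH1-positive cells. Isg15 fell by 0.85 against 1.34 on the log2 scale (difference 0.48 ± 0.07, adjusted p = 3.1e-06), where the CDH1-positive controls started from 69.1 and 67.1 CPM. Ifi44 went from 17.7 and 18.2 CPM to 12.4 and 12.0 CPM in CDH1-negative cells and from 35.8 and 37.9 CPM to 16.5 and 16.0 CPM in CDH1-positive cells (difference 0.62 ± 0.09, adjusted p = 2.43e-06). Bst2, the virion tether tetherin, was at 51.2 and 54.1 CPM in the control libraries and 53.3 and 54.3 CPM in the inhibitor libraries of the CDH1-negative cells, and at 88.1 and 87.8 CPM in the control libraries and 55.6 and 56.9 CPM in the inhibitor libraries of the CDH1-positive cells (difference 0.68 ± 0.06, adjusted p = 6.02e-17). With the inhibitor, Isg15, Ifi44 and Bst2 stood nearer in the 2 populations than without it, which restates these called differences and is no separate result. Of the 18 interferon-response genes 15 were higher and none lower in CDH1-positive than in CDH1-negative controls, where 26.6% of all genes were called. The macrophage sum in CDH1-positive cells went from 59.2 and 60.6 CPM to 43.0 and 43.6 CPM with the inhibitor. In CDH1-negative cells only Lyz2 of its 5 tested markers was called lower, from 4.29 and 4.23 CPM to 2.59 and 2.56 CPM. Csf1r there was at 1.92 and 1.98 CPM in the controls and 1.99 and 2.22 CPM with the inhibitor. The part of macrophages in the interferon values was not tested. In the other direction, Crabp1, a retinoic acid binding protein, fell in CDH1-negative cells from 76.0 and 79.0 CPM to 61.6 and 58.1 CPM (-0.37 ± 0.04) and was at 22.0 and 23.7 CPM in the control libraries and 24.8 and 25.3 CPM in the inhibitor libraries of the CDH1-positive cells (difference -0.50 ± 0.07, adjusted p = 2.65e-07).

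**Figure D4:**
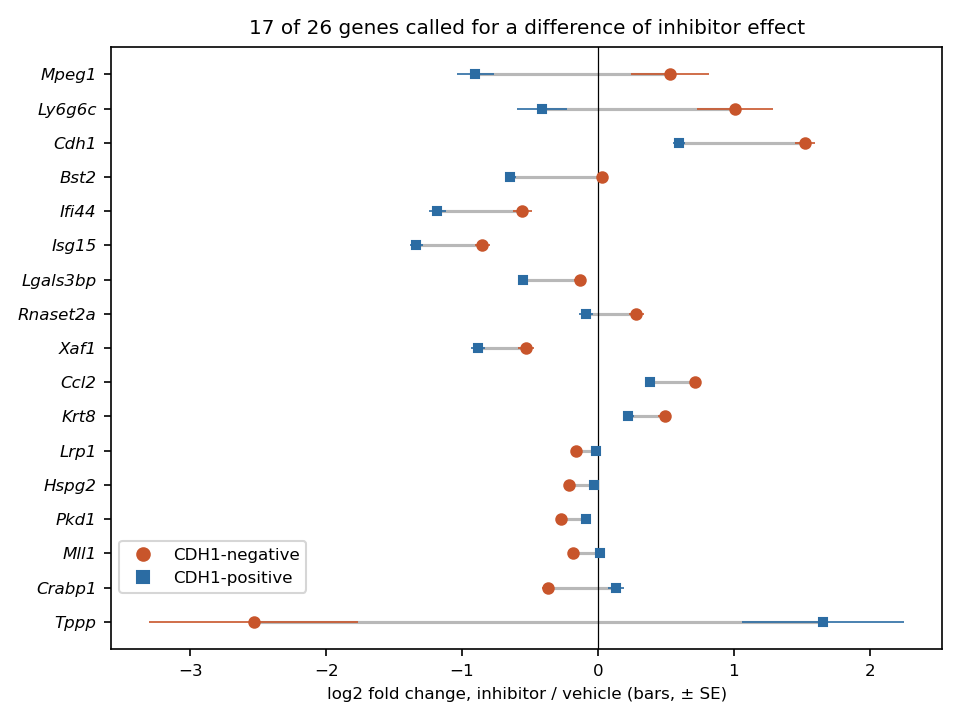
Log2 fold change, inhibitor over vehicle, with its standard error for 17 of the 26 genes called for a difference between CDH1-negative (orange circles) and CDH1-positive cells (blue squares), ordered by the difference. The genes drawn are those named in the text and also Tppp, Mpeg1 and Ly6g6c. Cdh1 lies at 1.53 against 0.59, Isg15 and Ifi44 lie further below 0 in CDH1-positive cells, and Tppp, Mpeg1 and Ly6g6c, under 1.4 CPM in the CDH1-negative libraries, have the widest bars.

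In unsorted cells given the inhibitor on days 2 to 4, 2020 genes rose and 1948 fell, 27.4% of 14473 tested. Those libraries share none with the sort and differ from it in the sort itself, the days of exposure and the experiment, which cannot be told apart. Of the genes called in CDH1-negative cells and tested in both, 535 were called higher in both (49.5% of the CDH1-negative and 27.7% of the unsorted calls) and 771 lower (51.0% and 39.7%). Opposite calls were made for 28 genes higher and 102 lower in CDH1-negative cells. The difference of effects was called for 1317 genes, 8.97% of 14679, and for 859 without the second unsorted control library. No difference was called for Cdh1 (1.53 ± 0.07 against 1.44 ± 0.09, difference 0.10 ± 0.11, adjusted p = 0.66) or for Cldn3 (1.57 ± 0.17 against 1.58 ± 0.12, adjusted p = 1). Krt8 rose less on the log2 scale in CDH1-negative cells (0.49 ± 0.05 against 1.25 ± 0.11, adjusted p of the difference = 2.61e-06). Its starting level was far higher there. With all libraries scaled together, its mean went from 31.1 to 43.8 CPM in CDH1-negative and from 3.58 to 8.47 CPM in unsorted cells.

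The contractile and interferon lists separated the experiments. Of 14 contractile genes, 5 fell and 1 rose in unsorted cells (median -0.02), and the difference to CDH1-negative cells was called for 7, all lower in CDH1-negative cells. Leaving out each unsorted library in turn gave 5 to 7 for the contractile genes. Myl9 was at 91.8 and 90.2 CPM in the unsorted controls and 97.4 and 98.2 CPM with the inhibitor, a rise of 0.10 ± 0.04. Cnn1 stood at only 5.33 and 4.20 CPM in the unsorted controls and 4.87 and 3.38 CPM with the inhibitor (-0.22 ± 0.20, adjusted p = 0.468), so its starting level was far lower there than in the sorted cells. Of 18 interferon-response genes, 5 rose and 2 fell in unsorted cells, and 11 differed, all lower in CDH1-negative cells, or 6 to 10 when 1 unsorted library was left out (interferon response list). Isg15 was at 2.22 and 2.33 CPM in the unsorted controls and 2.31 and 3.28 CPM with the inhibitor. Starting levels differed from those after the sort in both directions: Isg15 was lower in the unsorted controls, while Bst2, at 114 and 116 CPM, and Stat2, at 37.4 and 38.3 CPM, were higher there than in the CDH1-negative controls, at 51.2 and 54.1 CPM and 26.0 and 28.0 CPM. The unsorted libraries were scaled apart from the sorted ones.

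Sterol and fatty acid synthesis genes differed in the other direction. In CDH1-negative cells 5 of 25 rose and 2 fell (median -0.01), while in unsorted cells 1 rose and 21 fell (median -0.21), and 15 differed, all higher in CDH1-negative cells (10 to 15 when 1 unsorted library was left out of the sterol and fatty acid synthesis list). In the CDH1-positive cells of the same sort 2 rose and 9 fell (median -0.05). The fatty acid desaturase Scd2 was at 564 and 567 CPM in the control libraries and 627 and 618 CPM in the inhibitor libraries of the CDH1-negative cells (0.14 ± 0.02), and at 1088 and 1082 CPM in the unsorted controls against 967 and 944 CPM with the inhibitor (-0.18 ± 0.03; adjusted p of the difference = 1.49e-08). Insig1, which holds the sterol sensor in the endoplasmic reticulum, was not called in CDH1-negative cells (-0.01 ± 0.05) and fell in CDH1-positive (-0.23 ± 0.05) and unsorted cells (-0.38 ± 0.04). Ctgf fell in CDH1-negative cells and rose in unsorted cells, -0.30 ± 0.02 against 0.39 ± 0.03 (adjusted p of the difference = 1.25e-17).

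**Figure D5:**
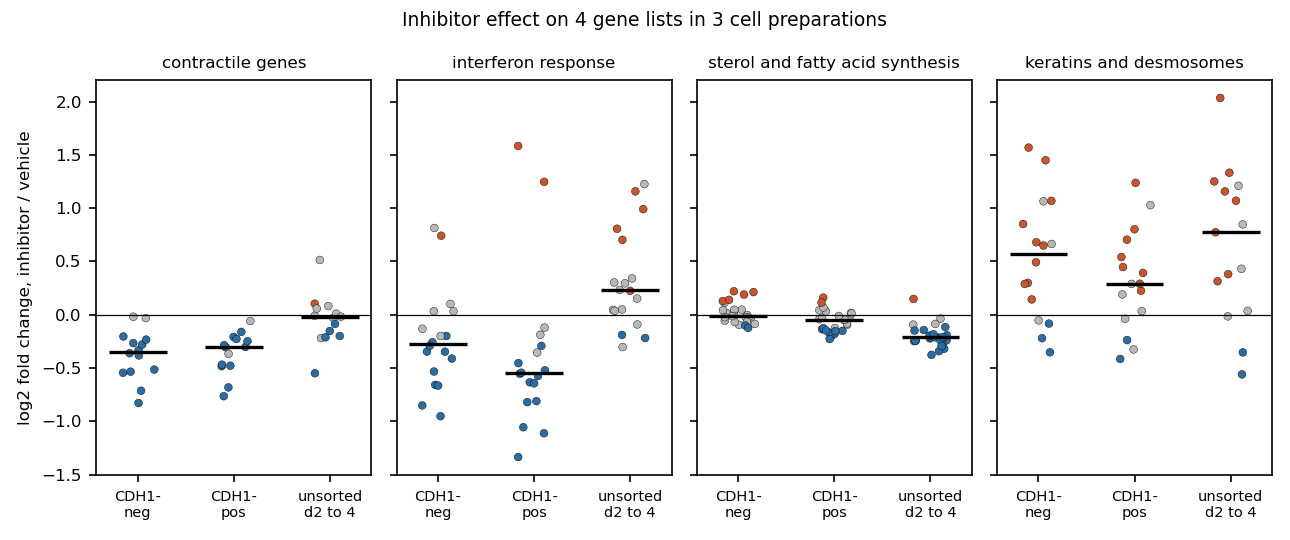
Log2 fold change, inhibitor over vehicle, for the members of 4 lists in CDH1-negative, CDH1-positive and unsorted cells (days 2 to 4); each point is 1 gene, orange called higher, blue called lower, grey not called, and bars are medians. Contractile genes have a median of -0.35 in CDH1-negative and -0.02 in unsorted cells, and sterol genes one of -0.01 in CDH1-negative, -0.05 in CDH1-positive and -0.21 in unsorted cells.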

How the data were processed

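RNA was measured by paired-end sequencing of TruSeq V2 libraries from 1 µg RNA, per the labels' protocols. The deposited files give expected counts and TPM per gene, made by the authors with RSEM 1.2.4, with Bowtie and Trimmomatic also named, per the submitters' processing notes. A human spike-in of 20 ng named in the labels was not used here. Expected counts were rounded, filtered with filterByExpr (minimum count 10, minimum total 15), scaled by TMM and fitted by group with edgeR 4.0.16 (robust quasi-likelihood, R 4.3.3): all 8 sorted libraries (4 residual degrees of freedom), the 14 timecourse libraries, or all 22 for the difference to unsorted cells, with no replicate block. Alternatives used DESeq2 1.42.0, limma 3.58.1 on the deposited log2(TPM + 1), other scalings, no filter, only 4 libraries, and each replicate left out. Tested on simulated data for the CDH1-negative comparison (13839 genes, 50 changed at each fold), the fit recovered 28, 47, 50 and 50 genes at folds of 1.2, 1.5, 2 and 3, with 13 false calls. Changed genes were drawn from those with a mean count over 50, and counts were simulated with the spread of the same fit and independent libraries. Recovery at lower counts, or with replicates that are not independent, was therefore not tested. Motifs were searched as exact letters in the RefSeq promoter windows. Settings of the aligner are not given in the sources used here.

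Genes named are the 12 largest changes each way (mean log2 CPM at least 1, no overlap), up to 4 called members of each of 37 lists (542 genes tested), and fixed markers. Added to these are up to 6 and 4 of the largest called differences each way to CDH1-positive and unsorted cells. Those differences were ranked only among genes also called in CDH1-negative cells, with the same minimum level. Cyr61, Insig1, Bst2, Cldn7 and other genes outside this rule were chosen after their values were seen. The members and lists were chosen with earlier results of these data known. Some genes are not reported here.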

Additional observations from a re-analysis of the deposited data

Results flagged for a closer look

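The inhibitor effect in CDH1-negative cells differed from that in CDH1-positive cells for 26 genes (edgeR's quasi-likelihood test of the difference itself, adjusted over all genes). The 11 given here were also called in CDH1-negative cells, at a mean log2 CPM of at least 1. They are the largest such differences, up to 6 each way. The difference, CDH1-negative minus CDH1-positive on the log2 scale, was 0.9328 for Cdh1, 0.6232 for Ifi44, 0.4845 for Isg15, 0.4145 for Lgals3bp, 0.3724 for Rnaset2a and 0.3552 for Xaf1. It was -0.5038 for Crabp1, -0.2023 for Mll1, -0.1839 for Pkd1, -0.181 for Hspg2 and -0.1446 for Lrp1. Cdh1, Ifi44, Isg15 and Crabp1 kept their calls under each alternative run. Lgals3bp lost its call under limma on log2(TPM + 1), and Rnaset2a, Xaf1, Mll1, Pkd1, Hspg2 and Lrp1 lost theirs under limma and when at least 1 of the sorted libraries was left out. Of these 6, all but Hspg2 also lost the call under DESeq2.

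By the same kind of test, the effect in CDH1-negative cells differed from that in unsorted cells for 1317 genes. The 8 given here are the 4 largest differences each way among genes also called in CDH1-negative cells, at the same minimum level. The difference, CDH1-negative minus unsorted, was -3.843 for the histone gene Hist1h2ab, -1.676 for Npas4, -1.635 for Arc and -1.435 for Foxs1. It was 1.762 for Akr1c18, 1.341 for Scara5, 1.15 for Gap43 and 1.077 for Wnt4. Akr1c18 did not pass without the second unsorted control library (1.39, adjusted p = 0.0518). Hist1h2ab was at 0.129 and 0.280 CPM in the unsorted controls and at 1.04 and 2.44 CPM with the inhibitor there. Low levels also held for Arc, at 0.496 and 0.956 CPM in the unsorted controls and 1.73 and 1.85 CPM with the inhibitor. Akr1c18 was at 0.755 and 1.21 CPM in those controls and 0.548 and 0.537 CPM with the inhibitor. Within unsorted cells the effect was not called for Akr1c18, Scara5 or Wnt4. Replicates of that inhibitor pair differed most, at a chi-square of 11.1 per gene.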

How the results depend on the processing

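The alternatives that apply were run for 160 effects of single genes in CDH1-negative cells, 11 differences to CDH1-positive cells and 8 to unsorted cells, not for the other differences (Krt8, Ccl2 and Bst2 among them). Among these, 1 gene changed sign: Dot1l, which was not called (-0.02), was at 0.02 with library totals, 0.01 with limma and 0.03 without the second CDH1-negative control library. DESeq2 made fewer calls: 1335 in CDH1-negative cells against 2607, 1362 in CDH1-positive cells against 2631, 11 against 26 for their difference and 2099 against 3717 between the sorted controls. Limma on log2(TPM + 1) made 8 calls for the difference between CDH1-negative and CDH1-positive cells. The share of higher calls in CDH1-negative cells was 41.9%, and 65.1% with library totals alone and 60.1% with limma; in CDH1-positive cells it was 44.2%, 62.9% and 57.2%, and between the sorted controls 48.2% and 70.1% with limma. With no low-count filter the share for the difference to unsorted cells was 64.5%, and 63.2% with library totals, against 53.1%. In unsorted cells DESeq2 gave 40.6% against 50.9%.

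Leaving out each library in turn gave 1893 to 2136 calls in CDH1-negative cells, 1674 to 1883 in CDH1-positive cells (lowest without the first control library), 18 to 35 for their difference, 2528 to 2999 between sorted controls, 2647 to 3159 in unsorted cells and 859 to 1225 for the difference to unsorted cells (lowest without the second unsorted control library). Where this leaves 1 library in a group, that library is assumed to vary like the other groups. Replicates share only a number: deviations of same-numbered libraries correlated at -0.119 to 0.109. A replicate block gave 2452 calls in CDH1-negative cells, 2489 in CDH1-positive cells, 26 for their difference and 3517 between controls, and 3976 and 1263 for the unsorted comparisons; Itgam and Ldha lost their calls in CDH1-negative cells, and Lrp1 that for the difference to CDH1-positive cells. The crossed pairing gave 2894 calls in CDH1-negative cells. Depth limits genes of low level: the 102 higher and 12 lower calls under 1 CPM had a median size of 1.31 and -1.50 on the log2 scale, against 0.11 and -0.13 over 100 CPM.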

Other observations

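Beside the list counts that follow, 7.82% of all genes tested were called higher and 10.8% lower. Those shares are not matched for level: of 2255 genes over 100 CPM, 133 rose and 578 fell. In CDH1-negative cells 4 of 7 trophoblast-associated genes were called: Tcfap2c (1.13), Ascl2 (1.11) and Eomes (0.81 on the log2 scale) rose and Tead4 fell (-0.15). Eomes lost its call under DESeq2 (adjusted p = 0.11) and limma (0.0832), and without the first control (0.61, adjusted p = 0.143) or the second inhibitor library (0.32, 0.532). Tead4 lost its call under library totals (0.123), DESeq2 (0.218) and limma (0.156), and without the second control (-0.09, adjusted p = 0.388), the first inhibitor (-0.15, 0.087) or the second inhibitor library (-0.15, 0.105). Of 21 genes of Notch netrin and FGF signalling 5 rose, among them the guidance ligand Ntn1 (0.90), the receptor Fgfr3 (0.64) and the Notch ligand Jag2 (0.48), and 4 fell, among them the receptors Fgfr1 (-0.32) and Unc5b (-0.27).

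Of 18 DNA methylation and chromatin regulators 2 rose, among them the 5-methylcytosine dioxygenase Tet1 (0.59), and 1 fell. That share lay near the 18.7% called over all genes tested. DESeq2 called 1 higher and 0 lower in this list, limma 0 in either direction, where Tet1 had an adjusted p of 0.0784. Of 15 immediate early genes 2 rose and 5 fell, among the latter Fosl1 (-0.28) and Nr4a1 (-0.26). DESeq2 called 0 higher and 2 lower, and leaving out the second control library gave 4 higher and 2 lower. Of 14 genes of glycolysis 2 rose, with the glucose transporter Slc2a3 at 0.28, and 3 fell. With library totals alone 4 were higher and 0 lower in glycolysis, and without the second control library 2 and 0. Of 16 genes of amino acid stress and unfolded protein 2 rose, with the stress factor Ddit3 at 0.27, and 1 fell, the serine synthesis enzyme Phgdh (-0.18). The share called in that list was also near the 18.7% over all genes.

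Of 6 neural and glial genes 2 rose, the tubulin Tubb3 (0.23) and Stmn2 (0.17). Of 7 endothelial genes 1 fell, the receptor Flt1 (-0.29), where 10.8% of all genes tested were called lower. Of 6 muscle genes 1 fell, the actin Acta1 (-0.22), a call lost under DESeq2 (adjusted p = 0.091) and without the second control (-0.19, 0.093) or the second inhibitor library (-0.21, adjusted p = 0.051). Of 16 fibroblast genes 8 fell, among them Meox2 (-0.55), Acta2 (-0.38) and Thy1 (-0.21), and the proteoglycan Dcn rose (0.25). Among the fibroblast markers 0 were higher and 6 lower under DESeq2, 0 and 8 without the first control library, and 0 and 7 without the second inhibitor library.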
